A study of Mus musculus with 30 samples.

Results

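Ccl3, Ccl4 and Ccl5 are secreted chemokines that activated T cells make, and they are described here in CD4+ T cells sorted from the infiltrated pancreas and from lymph nodes. The members were all probe sets whose single gene symbol was one of these names. Each gene had 1 such probe set (102424_at for Ccl3, 94146_at for Ccl4 and 98406_at for Ccl5), so the 3 genes stood among 8251 genes named alone on the array. All 3 genes lie on mouse chromosome 11, and in the RefSeq gene order the run of neighbours is Ccl5, Ccl9, Ccl6, Ccl3, Ccl4.

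Ccl3 and Ccl4 are also known as macrophage inflammatory proteins 1 alpha and 1 beta, and Ccl5 as RANTES. They draw effector T cells, monocytes and natural killer cells to inflamed tissue through G protein coupled receptors, among them Ccr1, which binds Ccl3 and Ccl5, and Ccr3, which binds Ccl5. In T cells Ccl3 and Ccl4 are transcribed soon after the antigen receptor is engaged, while Ccl5 is known as a late gene of differentiated and memory cells. Macrophages, dendritic cells, natural killer cells and CD8 T cells make them too.

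The 30 one-colour Affymetrix mouse arrays (MG-U74Av2) carried RNA of FACS-sorted CD4+ cells. All mice were of the NOD strain and BDC2.5 TCR transgenic, so most T cells of every group carry 1 receptor for an islet antigen and no group stands for a normal repertoire. Pancreas set 1 held 3 arrays of regulatory T cells (Treg, CD4+CD25+CD69-) and 5 arrays of effector T cells (Teff, CD4+CD25lo/-CD69+/-), all from mice given Rat IgG, with no age in the labels. Pancreas set 2 held 3 Treg arrays (CD4+CD25+) and 3 Teff arrays (CD4+CD25-) from mice of 26 days given antibody to the costimulatory receptor ICOS, and 2 Treg arrays (CD4+CD25+CD69-) from mice given IgG, 1 at 26 days and 1 at 4 weeks. The lymph node set, from mice of 4 weeks with no treatment in the labels, held CD4+CD25+ cells (5 mesenteric and 3 peripheral arrays) and CD4+CD25- cells (3 arrays from each site). The CD69 gate thus differed between IgG and anti-ICOS cells, and between IgG Treg and Teff cells. Whether replicates are separate animals is not in the labels, and a p-value here covers only the spread from array to array, which may be technical.

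Several arrays needed care. IgG Treg replicate 3 of set 1 and IgG Treg replicate 2 of set 2 carry the same array number, and their profiles correlated at r = 0.997 over the probe sets, while the closest other pancreatic array reached 0.988; they are treated as 1 array in 2 records. The array labelled anti-ICOS Treg replicate 3 went against its label: Klrg1, a receptor high in the other Treg arrays, was 5.50 on the log2 scale there, against 8.80 and 9.46 on replicates 1 and 2 and 5.11 to 5.30 on the anti-ICOS Teff arrays, and Il2ra, which encodes CD25, was 3.88 there, against 3.68 to 3.82 on the anti-ICOS Teff arrays. On IgG Treg replicate 1 of set 2 the macrophage lysozyme gene Lyz2 was 9.12, against 3.37 on replicate 2. A mesenteric CD25+ array (replicate 2) has a CD25- source name, and its Il2ra value of 5.50 lay with the other CD25+ arrays. The array numbers form 5 runs of near-consecutive numbers, named A to E, and what sets the runs apart is not in the labels. Actin 3'/5' log2 ratios, a mark of RNA quality and amplification, averaged 3.75 (3.02 to 4.53) on IgG Treg arrays and 2.65 (2.38 to 3.11) on IgG Teff arrays.

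All member values below are log2 intensities. Each comes from a different probe set, so the height of one gene cannot be read against that of another. The 3 sets of records were normalized apart, so levels are set side by side across sets without a test. Where groups are said to overlap or not, the share of all probe sets that did the same was not counted.

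The RefSeq promoter table (GRCm38.p6) held an entry for 1 of the 3 members, Ccl3. It is shown because Ccl3 and its neighbour Ccl4 moved together over the arrays (given further on), and because the NFAT and RUNX families are known to act at T cell cytokine genes. The window runs from 250 bases before the start of the gene to 50 bases after it, at chr11:83649329-83649628 on the minus strand, and is printed 5′ to 3′ along the gene. Capitals mark, from left to right, a RUNX core (TGTGGT), 2 NFAT cores (GGAAA on the minus strand of the gene, so TTTCC as printed) and a TATAA.
Ccl3 promoter: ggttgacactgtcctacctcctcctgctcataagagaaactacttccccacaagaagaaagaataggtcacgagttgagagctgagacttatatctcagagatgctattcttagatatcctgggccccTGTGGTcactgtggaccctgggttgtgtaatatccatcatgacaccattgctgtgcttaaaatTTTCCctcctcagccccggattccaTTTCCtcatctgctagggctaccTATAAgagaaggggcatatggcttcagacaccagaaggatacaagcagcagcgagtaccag
GGAAA and TGTGGT were searched on both strands and TATAA on the strand of the gene, and no match overlapped another. The NFAT cores began 59 and 34 bases before the start, the RUNX core 122 bases before it and the TATAA 11 bases before it. Such short words are common: of 32851 promoters of this length 61.3% held the NFAT core at least once and 26.7% at least 2 times, 16.8% held the RUNX core and 17.5% held TATAA. A match is a description of the letters and not a site of binding.

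**Figure D1:**
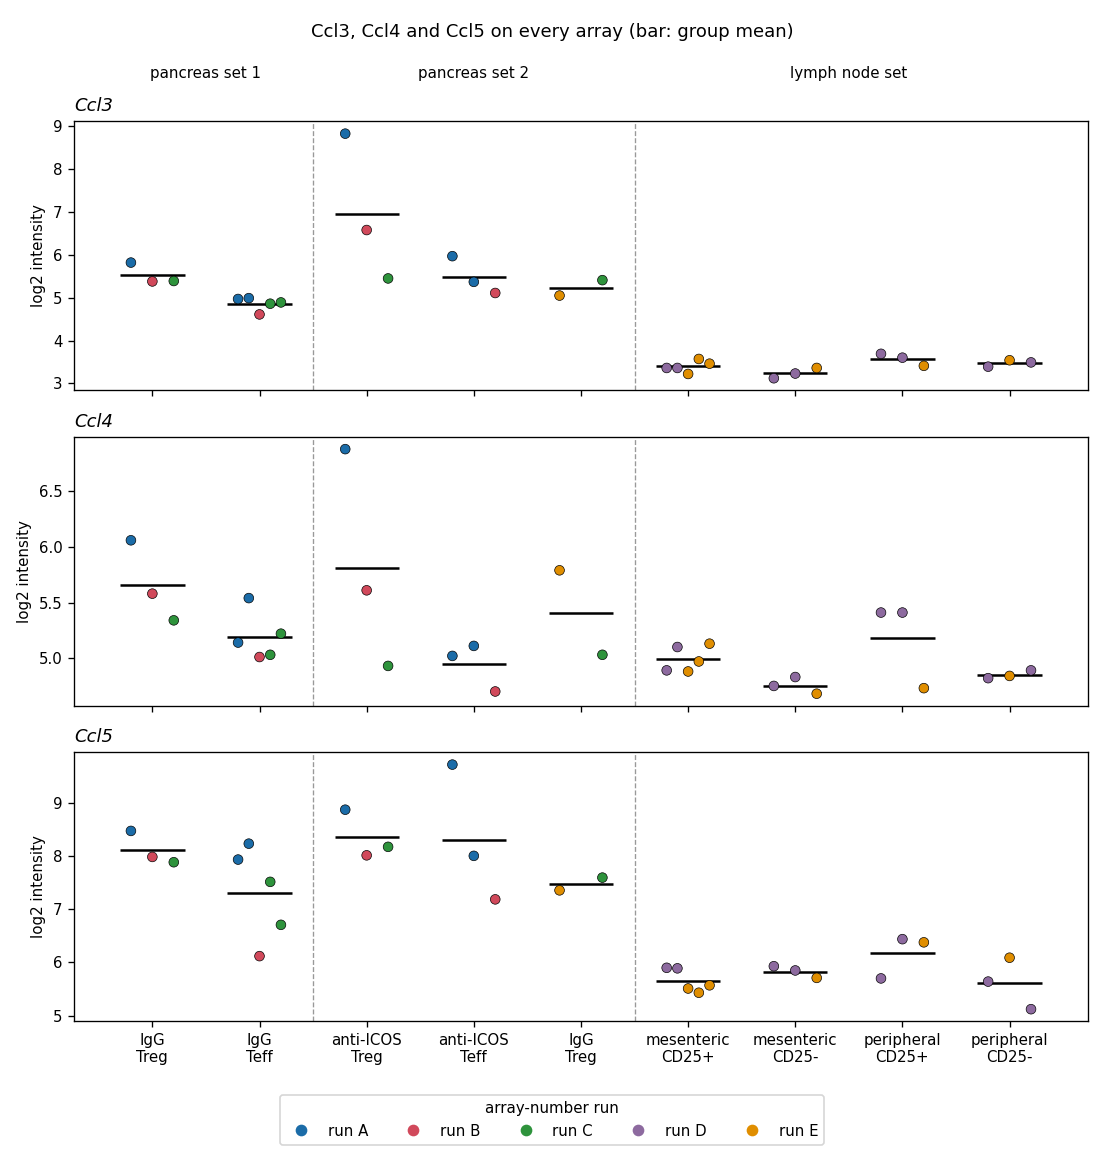
Log2 intensity of Ccl3, Ccl4 and Ccl5 (vertical axes) on each of the 30 arrays in 9 groups, with points coloured by array-number run and a bar at each group mean. Ccl3 and Ccl5 points of the pancreatic groups mostly sit above those of the lymph node groups, and anti-ICOS Treg replicate 1 of run A is the highest Ccl3 point at 8.83.

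Ccl3, an early chemokine of activated T cells, was 5.82, 5.38 and 5.39 on the IgG Treg arrays of the pancreas, against 4.97, 4.99, 4.61, 4.86 and 4.89 on the IgG Teff arrays. Every Treg array was above every Teff array. The means were 5.53 ± 0.25 (SD, n = 3) in Treg cells and 4.87 ± 0.15 (SD, n = 5) in Teff cells. The difference was 0.66 (SE 0.13, 95% interval 0.38 to 0.95), or 1.58-fold, with an adjusted p of 0.0129 by limma. In this comparison 6.69% of all probe sets were called, and Ccl3 was the 1 member among them. As these are bulk samples, more cells that make the chemokine and more RNA per cell cannot be told apart.

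Ccl4, which is made beside Ccl3 in activated T cells, was 6.06, 5.58 and 5.34 on the IgG Treg arrays, against 5.14, 5.54, 5.01, 5.03 and 5.22 on the IgG Teff arrays. The groups overlapped, as Teff replicate 2 lay above Treg replicate 3. The difference was 0.47 (SE 0.17, 95% interval 0.10 to 0.85) and did not pass after adjustment (adjusted p = 0.145 by limma).

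Ccl5, the late chemokine, was 8.48, 7.99 and 7.89 on the IgG Treg arrays, against 7.94, 8.24, 6.12, 7.52 and 6.71 on the IgG Teff arrays. The Treg arrays lay close together and the Teff arrays were spread over more than 2 log2 units. The difference of 0.81 (SE 0.42, 95% interval -0.13 to 1.75) did not pass (adjusted p = 0.329 by limma).

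The array-number runs A, B and C each held both cell types of set 1. Within these runs the Treg array lay above the mean of its Teff arrays for each of the 3 genes. A run held 1 Treg array and 1 or 2 Teff arrays. The share of all probe sets with the same direction in the 3 runs was not counted. For Ccl3 the Treg minus Teff difference was 0.83 in run A, 0.77 in run B and 0.51 in run C. For Ccl4 it was 0.72, 0.57 and 0.22, and for Ccl5 it was 0.39, 1.86 and 0.77 in the same runs. Ccl5 was high on the run A arrays of both cell types and lowest on the Teff array of run B.

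**Figure D2:**
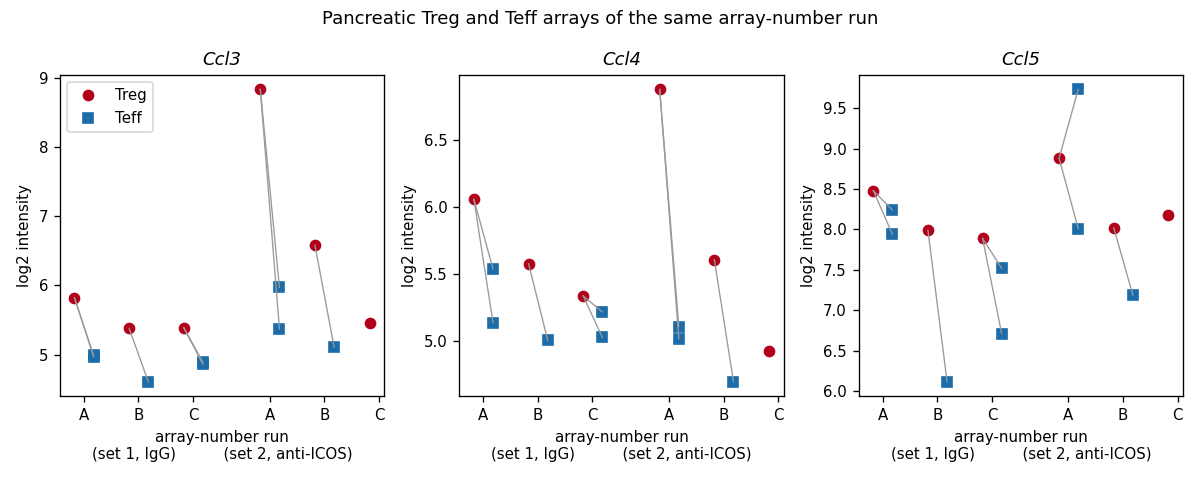
Log2 intensity (vertical axes) of Treg arrays (circles) and Teff arrays (squares) of the pancreas by array-number run (horizontal axes), with set 1 (IgG) on the left and set 2 (anti-ICOS) on the right of each panel; grey lines join arrays of 1 run. In set 1 the Ccl3 difference is 0.83, 0.77 and 0.51 in runs A, B and C, and in set 2 it is 3.16 in run A and 1.48 in run B.

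The Ccl3 difference moved little with single arrays. With each array left out in turn it was 0.52 to 0.74, with adjusted p-values of 0.0178 to 0.0371, and without IgG Treg replicate 3, the array in 2 records, it was 0.73. It was no longer a call with the actin 3'/5' ratio as a covariate, which left the difference at 0.79 and raised its SE to 0.21 (adjusted p = 0.183). The part of RNA quality in the difference was not tested beyond this fit.

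Markers of other cells, some of which make these chemokines, were set beside the result. Of 17 macrophage and dendritic cell markers 16 were measured; their summed intensity (log2) was 9.03 to 9.55 on IgG Treg arrays and 9.16 to 9.63 on IgG Teff arrays, and none passed the test (1 at an unadjusted limma p under 0.05). The 7 of 10 measured CD8 and NK cell markers summed to 7.11 to 7.29 on Treg arrays and 7.01 to 7.18 on Teff arrays, with 0 past the test and 0 at an unadjusted p under 0.05. The 9 of 10 measured B cell markers summed to 9.50 to 9.82 on Treg arrays, above the 9.0 to 9.19 on Teff arrays, and 2 of them rose. These were Cd79b (0.69) and Ighm (0.74 on its brightest probe set). Another Ighm probe set differed by 1.48 and the rest by -0.05 to 0.25. T cell identity genes (10 of 12 measured) summed to 12.19 to 12.36 on Treg arrays and 11.49 to 11.95 on Teff arrays, and 3 rose. Beside these B cell and T cell counts, 6.69% of all probe sets were called. The 3 of 7 measured erythroid markers summed to 11.19 to 11.50 on Treg arrays, above the 8.94 to 11.14 on Teff arrays, and the 7 of 8 measured islet endocrine markers to 8.47 to 8.62 on Treg arrays, against 8.16 to 8.48 on Teff arrays; 0 genes of either list passed (1 and 2 at an unadjusted limma p under 0.05). Exocrine pancreas markers (6 of 10 measured) summed to 8.66 to 9.25 on Treg arrays and 8.66 to 9.04 on Teff arrays. The 10 granulocyte and mast cell markers, all measured, summed to 7.97 to 8.28 on Treg arrays and 7.85 to 8.06 on Teff arrays. Of these 0 passed and 0 had an unadjusted limma p under 0.05. The part of the B cell, T cell, erythroid, islet and granulocyte sums in the Ccl3 difference was not tested.

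The receptors Ccr1 and Ccr3 did not pass in any comparison described here, and both probe sets were dim. The dimmest 25% of an array ended at 3.76 to 3.91 (set 1), 3.29 to 3.55 (set 2) and 3.49 to 3.64 (nodes). Ccr1 reached at most 3.34, 2.49 and 3.35 in these sets, below that mark on every array. Ccr3 lay below or near it, so the small differences of both genes rest on dim values. Ccr1, a receptor for Ccl3 and Ccl5, averaged 3.15 ± 0.18 (SD, n = 3) in IgG Treg cells and 3.09 ± 0.10 (SD, n = 5) in IgG Teff cells, and differed by 0.06 (SE 0.10, adjusted p = 0.83). Ccr3, a receptor for Ccl5, averaged 3.75 ± 0.18 in IgG Treg cells and 3.72 ± 0.20 in IgG Teff cells with the same numbers of arrays, and differed by 0.04 (SE 0.13, adjusted p = 0.916). By limma 0 of these 2 genes passed in this comparison, and 0 had an unadjusted p under 0.05.

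The gene lists were chosen with earlier results of these data known, so their shares past the threshold are descriptions and not tests of enrichment. Other chemokine genes did not pass. Of 22 measured, 0 passed by limma between IgG Treg and Teff cells and 2 had an unadjusted p under 0.05, with a median difference of 0.04 beside 0.03 over all probe sets. Among 13 other chemokine receptors 3 rose and 2 fell, where 6.69% of all probe sets were called: Ccr2, a receptor of monocyte chemokines, differed by 1.73, Cxcr3, the receptor of interferon-induced chemokines, by 1.66, Ccr6, the receptor of Ccl20, by 0.83, and Ccr7, which guides cells into lymph nodes, by -0.77 (adjusted p = 0.000489, 1.56e-05, 0.000701 and 0.00513, limma). Of 19 effector cytokine and cytotoxic granule genes 9 rose and 1 fell, beside the same 6.69%, with a median difference of 0.48 against 0.03 over all probe sets; Klrg1 (3.89), the granule protease Gzmb (3.67) and the inhibitory cytokine Il10 (2.30) rose, and the transcription factor Eomes fell by 1.18.

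Genes of T cell activation and of chemokine transcription were read against the same 6.69% of all probe sets called. Of 22 activation and immediate early genes 0 rose and 2 fell, with a median difference of -0.18 beside 0.03 over all probe sets (7 at an unadjusted limma p under 0.05): the phosphatase Dusp2 fell by 0.68 and the antiproliferative gene Btg2 by 0.66. Cd69 itself, on which the cells were gated, had no probe set of its own. Of 15 transcriptional regulators 1 rose and 1 fell, with a median difference of 0.07 (5 at an unadjusted p under 0.05); Bhlhe40, a basic helix-loop-helix repressor, rose by 0.65, and Nfatc1, an NFAT factor, fell by 0.40. Ifng, which encodes interferon gamma, differed by 0.95 (SE 0.39) and did not pass (adjusted p = 0.206).

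In anti-ICOS treated mice Ccl3 spread most. It was 8.83, 6.58 and 5.45 on the anti-ICOS Treg arrays, against 5.97, 5.37 and 5.11 on the anti-ICOS Teff arrays. Treg replicates 1 and 2 lay above all Teff arrays, and replicate 3, the array that went against its label, lay among them. The means were 6.95 ± 1.72 in Treg cells and 5.48 ± 0.44 in Teff cells (SD, n = 3 each), and the difference of 1.47 (SE 0.73, 95% interval -0.21 to 3.15) did not pass (adjusted p = 1.0, limma). Of all probe sets 0% were called in this comparison, and 209 had an unadjusted p under 0.05.

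Ccl4 followed the same order over the Treg arrays. It was 6.88, 5.61 and 4.93 on the anti-ICOS Treg arrays, against 5.02, 5.11 and 4.70 on the anti-ICOS Teff arrays. Treg replicates 1 and 2 again lay above all Teff arrays, and the difference was 0.86 (SE 0.45, 95% interval -0.17 to 1.90, adjusted p = 1.0 by limma).

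Ccl5 did not follow it. Ccl5 was 8.88, 8.02 and 8.18 on the anti-ICOS Treg arrays, against 9.73, 8.01 and 7.19 on the anti-ICOS Teff arrays. The highest and the lowest of these 6 values were both Teff arrays, and the difference was 0.05 with a wide interval of -1.26 to 1.36 (SE 0.57, adjusted p = 1.0 by limma).

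These values rested on single arrays. Without anti-ICOS Treg replicate 3 the Ccl3 difference was 2.22 (SE 0.59, adjusted p = 0.411), that of Ccl4 1.3 (adjusted p = 0.516) and that of Ccl5 0.14. Without anti-ICOS Treg replicate 1, the array of the highest Ccl3 and Ccl4 values, the differences were 0.53 for Ccl3, 0.32 for Ccl4 and -0.21 for Ccl5. The Treg minus Teff difference of Ccl3 was 3.16 in run A and 1.48 in run B, that of Ccl4 1.81 and 0.91, and that of Ccl5 0.01 and 0.83; run C held no anti-ICOS Teff array. With the run as a block the Ccl3 difference was 2.44 (adjusted p = 0.0862) and the Ccl4 difference 1.43 (adjusted p = 0.0851), still short of the threshold. With the actin ratio as a covariate they were 0.62 and 0.20. The actin ratios averaged 3.05 (2.45 to 4.06) on anti-ICOS Treg arrays and 2.29 (2.16 to 2.41) on anti-ICOS Teff arrays.

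The Treg minus Teff difference under anti-ICOS was set against that under IgG in a single model (treatment by cell type). The difference of differences was 0.81 (SE 0.77) for Ccl3, 0.39 (SE 0.48) for Ccl4 and -0.76 (SE 0.80) for Ccl5, with adjusted p-values of 1.0 by limma. Without anti-ICOS Treg replicate 1 the value was -0.13 for Ccl3 and -0.15 for Ccl4, and without replicate 3 it was 1.56 and 0.83. Of all probe sets 0% were called here, with 230 at an unadjusted p under 0.05, and the CD69 gates also differed between the treatments.

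Within set 2, Treg cells from anti-ICOS mice were compared with Treg cells from IgG mice. Ccl3 was 8.83, 6.58 and 5.45 on the anti-ICOS Treg arrays, against 5.05 and 5.41 on the IgG Treg arrays. All anti-ICOS arrays lay above both IgG arrays, replicate 3 by 0.04. How many of all probe sets were split in this way between so few arrays was not counted. The difference was 1.72 (SE 0.82, 95% interval -0.15 to 3.60, adjusted p = 0.893 by limma), and 0% of all probe sets were called (425 at an unadjusted p under 0.05).

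Ccl4 and Ccl5 gave smaller differences. Ccl4 was 6.88, 5.61 and 4.93 on the anti-ICOS Treg arrays, against 5.79 and 5.03 on the IgG Treg arrays, so the groups overlapped; anti-ICOS minus IgG was 0.40 (SE 0.50, adjusted p = 0.897). Ccl5 was 8.88, 8.02 and 8.18 on the anti-ICOS Treg arrays, against 7.36 and 7.60 on the IgG Treg arrays. The Ccl5 difference was 0.88 (SE 0.64, 95% interval -0.58 to 2.34, adjusted p = 0.893 by limma). Run C is the 1 run that held both treatments, with 1 array of each, and its anti-ICOS array is replicate 3, the one that went against its label; in it the anti-ICOS minus IgG difference was 0.04 for Ccl3, -0.10 for Ccl4 and 0.57 for Ccl5.

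Leaving out an array moved the Ccl3 and Ccl4 values. Without IgG Treg replicate 1, the array with high Lyz2, the Ccl3 difference was 1.54 and that of Ccl4 0.78. Without IgG Treg replicate 2, the array treated as held in both sets, they were 1.90 and 0.02. Each of these fits left 1 IgG Treg array. Without anti-ICOS Treg replicate 3 they were 2.48 and 0.84, and without anti-ICOS Treg replicate 1 they were 0.79 and -0.14. The 16 measured macrophage and dendritic cell markers summed to 8.65 to 9.53 on anti-ICOS Treg arrays and 8.81 to 10.50 on IgG Treg arrays of set 2. The 3 measured erythroid markers summed to 6.82 to 11.25 on anti-ICOS Treg arrays, below the 11.52 to 13.31 on IgG Treg arrays, with a median difference of -2.21, and the islet markers to 7.87 to 8.24 on anti-ICOS Treg arrays, below the 8.36 to 8.40 on IgG Treg arrays. Their part in the chemokine differences was not tested.

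For effector cells the treatment coincides with the set, so values are given side by side without a test. Ccl3 was 5.97, 5.37 and 5.11 on anti-ICOS Teff arrays of set 2 and 4.61 to 4.99 on IgG Teff arrays of set 1. Ccl4 was 4.70 to 5.11 on the anti-ICOS and 5.01 to 5.54 on the IgG Teff arrays, and Ccl5 was 7.19 to 9.73 and 6.12 to 8.24. Ccl3 stood higher on each anti-ICOS Teff array than on any IgG Teff array, while Ccl4 and Ccl5 overlapped. The array treated as held in both sets had a set 2 minus set 1 difference of 0.02 for Ccl3, -0.32 for Ccl4 and -0.28 for Ccl5, beside a median of -0.22 over all probe sets.

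In lymph node T cells Ccl3 was dim. It was 3.36, 3.36, 3.22, 3.57 and 3.46 on mesenteric CD25+ arrays, against 3.12, 3.23 and 3.36 on mesenteric CD25- arrays. Peripheral CD25+ cells had 3.69, 3.60 and 3.41, against 3.39, 3.54 and 3.49 in peripheral CD25- cells. On 10 of 14 lymph node arrays the Ccl3 probe set fell among the dimmest 25% of its array, which it did on 0 of 16 pancreatic records, so differences between node groups rest on dim values of this probe set.

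The CD25+ and CD25- node cells overlapped for Ccl3 at both sites. The CD25+ minus CD25- difference was 0.16 (SE 0.10, 95% interval -0.05 to 0.36, adjusted p = 0.355 by limma) in mesenteric nodes, where 12.2% of all probe sets were called. In peripheral nodes, where 7.69% were called, it was 0.09 (SE 0.11, 95% interval -0.14 to 0.33, adjusted p = 0.679).

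Ccl4 was 4.89, 5.10, 4.88, 4.97 and 5.13 on mesenteric CD25+ arrays, against 4.75, 4.83 and 4.68 on mesenteric CD25- arrays. Each CD25+ array lay above each CD25- array by a narrow margin, and the difference of 0.24 (SE 0.13, 95% interval -0.05 to 0.53) did not pass (adjusted p = 0.297 by limma). In peripheral nodes Ccl4 was 5.41, 5.41 and 4.73 on CD25+ arrays, against 4.82, 4.84 and 4.89 on CD25- arrays. CD25+ replicates 1 and 2, both of run D, were high and replicate 3, of run E, was below all CD25- arrays. The difference was 0.33 (SE 0.15, 95% interval 0.01 to 0.66, adjusted p = 0.222 by limma); it was 0.56 within run D and -0.11 within run E, and without CD25+ replicate 3 it was 0.56 (adjusted p = 0.00629).

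Ccl5 was 5.90, 5.89, 5.51, 5.43 and 5.57 on mesenteric CD25+ arrays, against 5.93, 5.85 and 5.71 on mesenteric CD25- arrays. These groups overlapped, with a difference of -0.17 (SE 0.21, 95% interval -0.62 to 0.28, adjusted p = 0.706 by limma). In peripheral nodes Ccl5 was 5.70, 6.44 and 6.38 on CD25+ arrays, against 5.64, 6.09 and 5.12 on CD25- arrays. The difference of 0.56 (SE 0.23, 95% interval 0.06 to 1.06, adjusted p = 0.184 by limma) did not pass with all arrays; it was 0.69 in run D and 0.29 in run E, and without CD25+ replicate 1 it was 0.80 (adjusted p = 0.0353).

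The node sites were compared within each sort. Among CD25+ cells the mesenteric minus peripheral difference was -0.17 (SE 0.10) for Ccl3, -0.19 (SE 0.13) for Ccl4 and -0.51 (SE 0.21, 95% interval -0.96 to -0.06) for Ccl5, each with an adjusted p of 0.972 by limma; 0.0725% of all probe sets were called. For Ccl5 it was -0.17 in run D and -0.88 in run E. Among CD25- cells it was -0.24 (SE 0.11, 95% interval -0.47 to -0.01) for Ccl3, with every mesenteric array below every peripheral array, -0.10 (SE 0.15) for Ccl4 and 0.22 (SE 0.23) for Ccl5, each with an adjusted p of 1.0 by limma; 0.451% of all probe sets were called. The CD25 difference was also compared between sites: mesenteric minus peripheral was 0.06 for Ccl3, -0.09 for Ccl4 and -0.73 for Ccl5 (SE 0.31, 95% interval -1.40 to -0.05, adjusted p = 1.0 by limma), and 0.00805% of all probe sets were called.

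**Figure D3:**
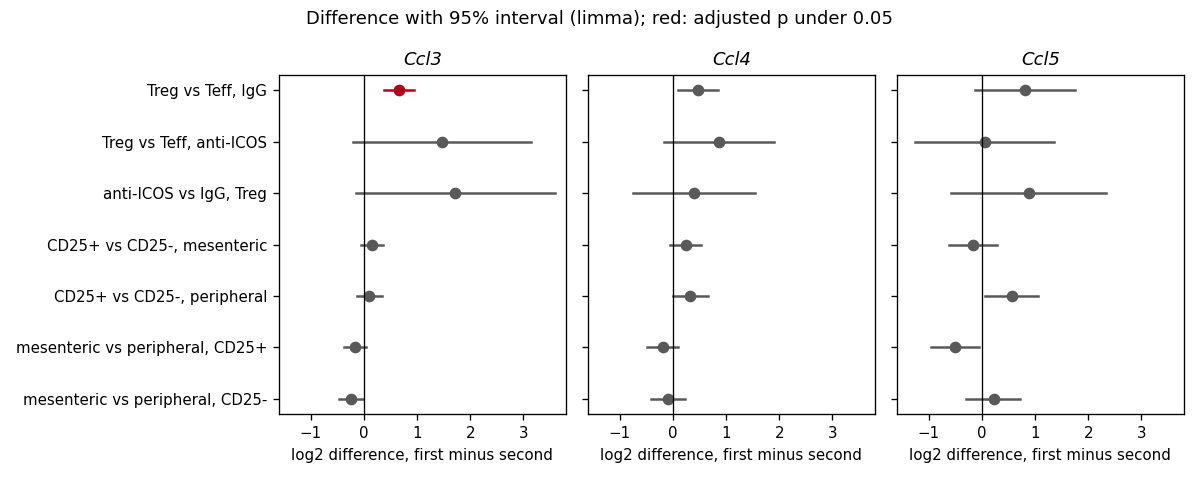
Log2 difference, first group minus second (horizontal axes), with its 95% interval from limma, for 7 comparisons of Ccl3, Ccl4 and Ccl5; red marks an adjusted p under 0.05. The single red point is Ccl3 in IgG Treg against Teff cells at 0.66, and the intervals of the anti-ICOS comparisons are wider than those of the node comparisons.

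In node cells the receptors and the other chemokines were read in the same way. By limma 0 of the 2 genes Ccr1 and Ccr3 and 0 of the 22 other chemokines passed between CD25+ and CD25- cells at either site. The Ccr1 probe set lay in the dimmest 25% of every node array. At an unadjusted p under 0.05 stood 0 of these 2 receptors at either site, 1 other chemokine in mesenteric nodes and 0 in peripheral nodes. Among 13 other chemokine receptors Ccr6 (3.02 mesenteric and 1.95 peripheral), Ccr2 (1.04 and 1.00) and Cxcr3 (0.65 and 0.89) rose at both sites. In the comparison of pancreas with nodes the regulatory minus effector difference was lower in the pancreas for Ccr6 (-1.65, adjusted p = 0.0027) and higher for Cxcr3 (0.89, adjusted p = 0.0373, limma). Of 19 effector and cytotoxic genes 4 rose and 2 fell in mesenteric CD25+ cells, and 5 rose and 2 fell in peripheral CD25+ cells; Ifng did not pass at either (0.13 and 0.17). Of 22 activation genes 4 rose and 4 fell in mesenteric CD25+ cells, and 0 rose and 3 fell in peripheral ones. These counts stand beside the 12.2% (mesenteric) and 7.69% (peripheral) of all probe sets called.

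The regulatory minus effector difference was then compared between pancreas and nodes (tissue by cell type), as the IgG Treg minus Teff difference less the mean CD25+ minus CD25- difference of both sites. For Ccl3 this was 0.54 (SE 0.14, 95% interval 0.25 to 0.83), just short of the threshold at an adjusted p of 0.0518 by limma, in a comparison that called 1.78% of all probe sets. It was 0.50 to 0.61 without single arrays other than IgG Treg replicate 1 and IgG Teff replicate 3, without which it was 0.40 (adjusted p = 0.172) and 0.47 (adjusted p = 0.0792). It passed without IgG Treg replicate 2 (0.61, adjusted p = 0.0427), peripheral CD25+ replicate 1 (0.57, adjusted p = 0.0325) or mesenteric CD25+ replicate 4 (0.56, adjusted p = 0.0426). With quantile normalization within each set it was 0.56 (adjusted p = 0.0327) and with the array-number run as a block 0.58 (adjusted p = 0.0149). With the actin ratio as a covariate it stayed short of the threshold (adjusted p = 0.135 by limma). For Ccl4 it was 0.18 (SE 0.20, adjusted p = 0.741) and for Ccl5 0.62 (SE 0.43, adjusted p = 0.571). Pancreas and nodes also differ in the CD69 gate, in treatment and in the set of records.

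The order of levels was as follows within each set. In set 1 Treg stood above Teff cells for all 3 genes, with no overlap for Ccl3 and overlap for Ccl4 and Ccl5. In set 2 the order for Ccl3 and Ccl5 was anti-ICOS Treg, anti-ICOS Teff and IgG Treg cells, for Ccl4 anti-ICOS Treg, IgG Treg and anti-ICOS Teff cells, and every neighbour in these orders overlapped the next. In the nodes peripheral CD25+ cells had the highest mean for each gene, and each neighbour overlapped the next.

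Pancreatic and node arrays were set side by side by each array's own median. Ccl3 minus the array median was -0.42 to 0.73 on the 8 arrays of set 1, 0.15 to 3.93 on the 8 of set 2 and -1.56 to -1.07 on the 14 node arrays, so the pancreatic and node ranges did not meet. For Ccl5 it was 1.10 to 3.39 in set 1, 2.38 to 4.85 in set 2 and 0.40 to 1.70 on node arrays, where set 1 and node arrays overlapped. Ccl4 minus the median was -0.02 to 0.97 in set 1, -0.11 to 1.98 in set 2 and -0.02 to 0.67 on node arrays, and these ranges overlapped throughout. The sets were processed apart, so these differences carry no test.

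The genes whose values followed each member most closely were sought over the 29 distinct arrays, each gene centred on its mean in each set, among 10833 probe sets with 1 symbol. The arrays share sets and runs, so the correlations are descriptions. For Ccl3 the closest was Ifng, with Pearson r = 0.90 and Spearman rho = 0.74; r was 0.78 without the 2 arrays farthest from the Ccl3 median and 0.84 with group means removed. Next came Gas8, a dynein regulator of cilia (r = 0.85), Fkbp2, an immunophilin of the endoplasmic reticulum (r = 0.85), Ccl4 itself (r = 0.80) and Kif22, a kinesin (r = 0.80). Ifng lay in the dimmest 25% of every node array and Ccl3 on 10 of 14, so the node points hold mostly dim values. The Ifng r of 0.84 with group means removed still included anti-ICOS Treg replicates 1 and 3. Their Ccl3 values of 8.83 and 5.45 lay far on either side of the group mean of 6.95.

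Ccl3 and Ccl4 followed each other with r = 0.80 and rho = 0.69. With group means removed r was 0.89, and without the 2 arrays farthest from the median r was 0.83 when those were taken by Ccl3 and 0.51 when taken by Ccl4. Ccl4 was closest to Map3k6, a stress kinase (r = 0.81), Fkbp2 (r = 0.81), Ccl3 (r = 0.80), Spef1, a microtubule protein (r = 0.80), and Ada, adenosine deaminase (r = 0.79). Much of the range came from anti-ICOS Treg replicate 1, which was among the 2 arrays left out for both genes.

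The genes closest to Ccl5 were Plac8, a gene of myeloid and activated lymphoid cells (r = 0.74, rho = 0.60), Litaf, a lysosomal membrane protein (r = 0.69), Ifitm1, an interferon-induced membrane protein (r = 0.68), Tmem214 (r = 0.68) and Lilr4b, an inhibitory leukocyte receptor (r = 0.67). Its r with Ccl3 was 0.46, which ranked 662 among the probe sets, and with Ccl4 0.33 (0.14 without the 2 arrays farthest from the Ccl4 median). With Ifng the r of Ccl5 was 0.59, rank 25, and 0.69 without the 2 arrays farthest from the Ccl5 median. The r of Ccl4 with Ifng was 0.66, rank 189, and it rested on anti-ICOS Treg replicate 1 and IgG Treg replicate 1 of set 1, without which it was 0.19.

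**Figure D4:**
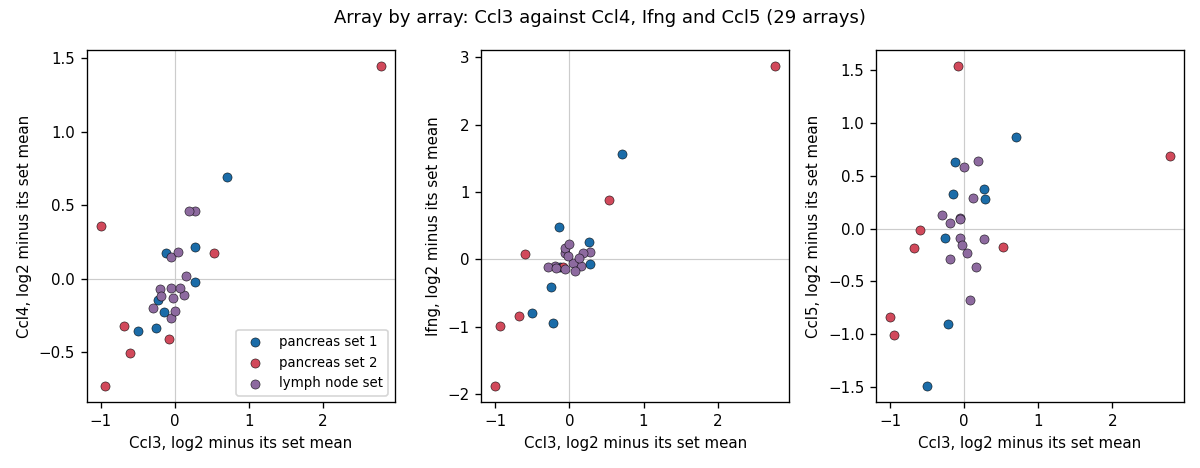
Ccl3 (horizontal axes) against Ccl4, Ifng and Ccl5 (vertical axes), each as log2 intensity minus its mean in the same set, with 1 point for each of 29 arrays coloured by set. The points of Ccl4 (r = 0.80) and Ifng (r = 0.90) climb with Ccl3, with anti-ICOS Treg replicate 1 far to the upper right, and those of Ccl5 scatter (r = 0.46).

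Ifng is shown array by array because it led the list for Ccl3. It was 10.11, 8.13 and 7.33 on anti-ICOS Treg arrays, 7.13, 6.41 and 6.26 on anti-ICOS Teff arrays, and 5.37 and 5.59 on IgG Treg arrays of set 2. In set 1 it was 7.17, 5.86 and 5.54 on IgG Treg arrays, against 6.09, 5.49, 4.81, 5.19 and 4.66 on IgG Teff arrays. Run A gave the highest Ifng and the highest Ccl3 array in both anti-ICOS groups and in IgG Treg cells. In IgG Teff cells the highest Ifng (6.09, replicate 1) and the highest Ccl3 (4.99, replicate 2) were also of run A, on different arrays. On the node arrays Ifng was 2.54 to 2.94. Between anti-ICOS and IgG Treg cells of set 2 the Ifng difference was 3.04 (SE 0.69) and did not pass (adjusted p = 0.893 by limma).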

How the data were processed

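The deposited values are intensities on a linear scale, 1 per probe set and array, made by the authors from one-colour arrays. RMA, without a version, is named per the submitters' processing notes for the lymph node set and pancreas set 2; for set 1 the processing was not given in the sources used here. Log2 was taken of the deposited values, which were used without further normalization; the array medians spanned 0.0851 to 0.0972 within each set. Precision is limited by the few arrays per group. Of 12488 probe sets, 66 Affymetrix controls were left out and 12422 were tested, of which 10833 named 1 gene, 396 several and 1193 none in GEO's platform annotation. The controls of the node arrays were stored in another order (r = 0.254 with set 1 as stored, 0.952 reordered) and were reordered for the actin ratios.

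The limma package (version 3.58.1, under R 4.3.3) fitted each set with 1 mean per group, using lmFit and then eBayes at their defaults, with two-sided tests. p-values were adjusted by Benjamini-Hochberg over all probe sets tested, with a threshold of 0.05; the scripts were tested on simulated data. Differences are first group minus second. The 2 differences of differences join sets, each difference being taken inside 1 set. Titles set the groups; all peripheral arrays carry a mesenteric tissue entry, against their titles. Named genes were the 3 members, the receptors Ccr1 and Ccr3, up to 4 genes past the threshold from each list and the 5 genes most like each member; a result on 1 further gene is not reported here. The members and lists were chosen with earlier results of these data known. Deviations from the group mean on same-numbered anti-ICOS Treg and Teff arrays correlated at r = 0.589, 0.283 and 0.237 across probe sets. Those of same-numbered node arrays correlated at 0.015 to 0.323. These ranges overlap and differently numbered arrays were not compared, so whether the numbers pair the samples is not known. Alternatives were quantile normalization, a filter that left out the dimmest 25% of probe sets, trend and robust variance options, the array-number run or the replicate number as a block, the actin ratio as a covariate, and each array left out in turn.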

Additional observations from a re-analysis of the deposited data

How the results depend on the processing

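Over 556 alternative values of the members, 532 kept direction and side of the threshold. This count does not measure stability, as Ccl3 in IgG Treg against Teff cells was the single member result past the threshold. Many of the values also came from leaving out an array of a group outside the comparison. Ccl3 in anti-ICOS against IgG Treg cells counted as kept, though it went from 1.72 to 0.04 with the run as a block. The causes of the values that were not kept were not tested. With the actin ratio as a covariate Ccl3 was 0.79 in IgG Treg against Teff cells (no longer past the threshold) and Ccl5 was -0.23 in anti-ICOS Treg against Teff cells; probe sets called were 86 in IgG Treg against Teff cells, 267 in CD25+ against CD25- peripheral cells, 5 in mesenteric against peripheral CD25+ cells and 89 in tissue by cell type. With the run as a block Ccl4 was -0.10 in anti-ICOS against IgG Treg cells, 15 probe sets were called in anti-ICOS Treg against Teff cells and 3 in anti-ICOS against IgG Treg cells. Ccl3 in tissue by cell type passed with quantile normalization (0.56), without dim probe sets (0.54), with trend and robust options (0.54) and with the run as a block (0.58). It did not pass with the actin ratio as a covariate (adjusted p = 0.135 by limma). For node site by CD25 the count was 0 without dim probe sets (limma, 274 at an unadjusted p under 0.05), 2 with trend and robust options and 2 with the replicate block.

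With the replicate number as a block, anti-ICOS Treg against Teff cells kept a count of 0 and the differences were 1.47 for Ccl3 (adjusted p = 0.794), 0.86 for Ccl4 (adjusted p = 0.779) and 0.05 for Ccl5 (adjusted p = 1.0). In the nodes the block gave 832 probe sets called in mesenteric CD25+ against CD25- cells and a Ccl3 value of -0.02 for node site by CD25. The block changed no member's call. The filter on dim probe sets dropped Ccl3 from the node fits.

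Without single arrays, counts of probe sets called ran from 450 (without IgG Teff replicate 5) to 1000 in IgG Treg against Teff cells, 0 to 12 in anti-ICOS Treg against Teff cells, 0 to 35 in anti-ICOS against IgG Treg cells, 743 to 1878 in mesenteric and 531 to 1462 in peripheral CD25+ against CD25- cells, 2 to 21 and 36 to 68 in mesenteric against peripheral CD25+ and CD25- cells, 1 to 2 in node site by CD25 and 149 to 413 in tissue by cell type. Ccl5 ran from -0.51 to 0.76 in anti-ICOS Treg against Teff cells, from 0.31 to 0.80 in peripheral CD25+ against CD25- cells and from -0.03 to 0.46 in mesenteric against peripheral CD25- cells. Ccl4 ran from -0.14 to 0.84 in anti-ICOS against IgG Treg cells, 0.22 to 0.56 in peripheral CD25+ against CD25- cells, -0.32 to 0.03 in node site by CD25, -0.15 to 0.83 in treatment by cell type and -0.02 to 0.34 in tissue by cell type. Ccl3 ran from -0.02 to 0.12 in node site by CD25, -0.13 to 1.56 in treatment by cell type and 0.40 to 0.61 in tissue by cell type. The dimness of the Ccl3 probe set on node arrays, the 2 or 3 arrays in most groups and the unknown processing of set 1 limit these values.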
